A study of Apis mellifera with 4 samples.

Results

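The carboxylesterases other than AmCEst01 were 9 of the 313 genes on an array of honey bee (Apis mellifera) chemosensory and related genes. They were taken by name, as every gene whose name in the scanner files starts with AmCEst except AmCEst01, which gives AmCEst02 to AmCEst10. The antennae of drones, the males, were compared with those of workers, the females. Drones are called mature in the design text, both sexes were caught at the hive entrance, and neither strain nor worker age is given in the sources used. Each of 4 arrays carried a drone RNA pool against a worker RNA pool in different dyes, every pool was an independent collection of 50 sets of whole antennae, and drone RNA was in Cy5 on arrays 2 and 4 and in Cy3 on arrays 1 and 3. A pool of whole antennae mixes neurons, support cells, gland cells and epidermis, so fewer cells of a type and less RNA per cell cannot be told apart. Each gene was printed as the same oligonucleotide in 2 neighbouring spots, which are repeat readings of 1 hybridization.

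Carboxylesterases are hydrolases that use an active-site serine to split an ester into an acid and an alcohol. Insect genomes hold many of them. Some are digestive or take part in the breakdown of insecticides and plant compounds, some act on juvenile hormone or acetylcholine, and in moths and Drosophila esterases of the antenna are known to degrade ester odorants and pheromones around olfactory neurons. Beyond the class, the files name no function for any of the 9 genes, and none of the 9 names matched a symbol or synonym in the RefSeq gene table, so no single role is given here.

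Across the 4 arrays the median signal of all genes, above local background, lay between 42 and 573.5 scanner units in drone and between 105.5 and 643 in worker. On array 4 the drone median was 178 and the worker median 643, and the ratios given are those after loess normalization within the array, except where another setting is named. Turned to drone over worker, the log2 ratios of all genes correlated between arrays at r = 0.39 to 0.78. The antennal genes AmOr002, the odorant co-receptor, and AmSNMP, the sensory neuron membrane protein, were above the negative controls on 4 of 4 arrays in both sexes. The opsins AmBLop, AmLop1, AmLop2 and AmUVop, taken as markers of eye tissue, were above them on 0 or 1 array in drone and on 0 to 2 arrays in worker. A further opsin, AmPteropsin, was above them on 0 arrays in drone and 1 in worker, and is not read as an eye marker.

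Signal was first set against the negative control spots, with a threshold of the control mean plus 2 SD for each channel and array. AmCEst02, AmCEst03, AmCEst06 and AmCEst09 were above it on at least 3 of 4 arrays in drone antennae, and AmCEst03, AmCEst06 and AmCEst09 in worker antennae. That was 4 and 3 of the 9 genes, against 28.8% of all genes in drone and 31% in worker. With control oligo 4 in the threshold 2 genes passed in drone and 1 in worker, and with 3 SD 2 passed in drone and 3 in worker. AmCEst02 passed on 3 arrays in drone and on 2 in worker. AmCEst04 and AmCEst05 did not pass on any array in either sex. AmCEst07, AmCEst08 and AmCEst10 did not pass on any array in drone, and passed on 1, 2 and 1 arrays in worker. RNA of these 5 genes was not detectable at this signal in most pools, which does not show that it was absent.

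**Figure D1:**
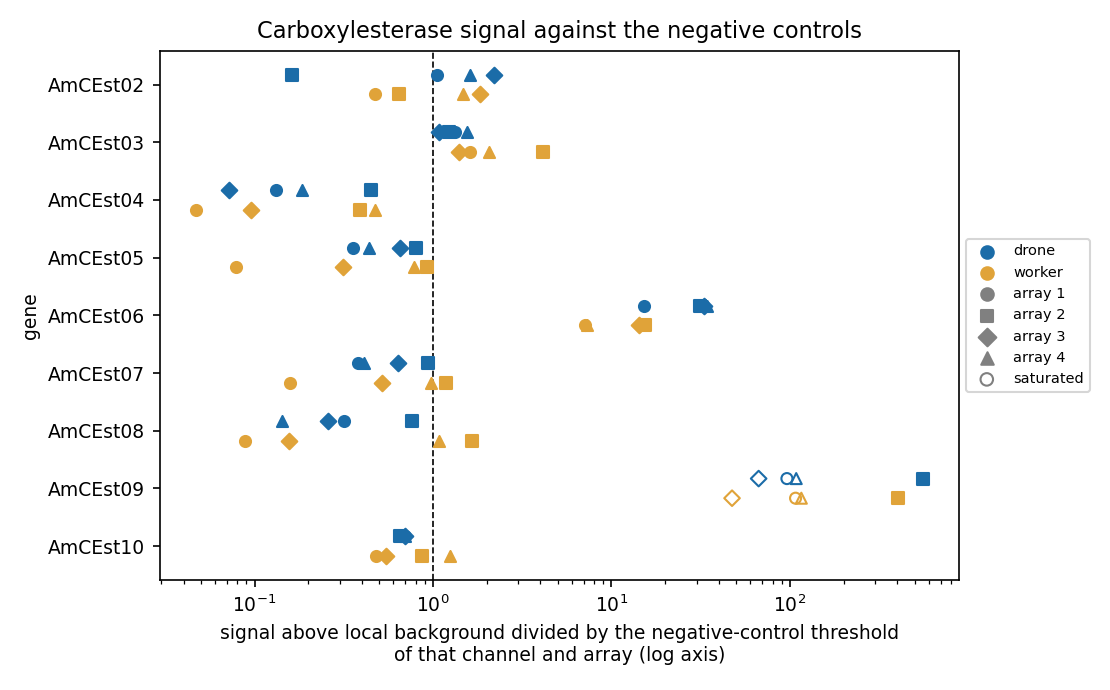
Signal above local background of the 9 carboxylesterases (rows), divided by the negative-control threshold of the same channel and array, on a log axis with a dashed line at the threshold. Drone points (blue) stand above worker points (yellow), the symbol gives the array, and open symbols are saturated. AmCEst06 and AmCEst09 lie right of the line on all 4 arrays in both sexes, AmCEst03 passes on all 4 by a smaller margin, and AmCEst04 and AmCEst05 lie left of it throughout.

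AmCEst06 was the only gene of the 9 to pass the test at an adjusted p under 0.05, and it was higher in drone antennae. Its signal on arrays 1 to 4 was 10307.5, 1845, 32059 and 20577 scanner units in drone, against 4314, 1234, 19583.5 and 4121 in worker. The drone signal was above the worker signal of the same array on all 4 arrays, while levels of different arrays overlapped between the sexes. These signals were 15.2, 31.4, 32.9 and 34.2 times the control threshold in drone, and 7.11, 15.3, 14.2 and 7.31 times in worker, with no saturated spot. The normalized log2 ratios of drone over worker were 0.93, 0.50, 0.87 and 1.20 on arrays 1 to 4. Their mean was 0.87 ± 0.18 (limma standard error, n = 4), a 1.83-fold higher level in drone with a 95% interval of 1.36 to 2.46 (limma, adjusted p = 0.0238). The ratio averaged 0.85 on the arrays with drone in Cy5 and 0.90 on those with drone in Cy3. By slide it was 0.93 on slide 4, 0.50 on slide 5 and 1.03 on slide 7, which carried arrays 3 and 4. The adjusted p was 0.119, 0.0791 and 0.0843 without array 1, 2 or 3, with log2 ratios of 0.86, 1.00 and 0.88, so the call needs each of these arrays. It also missed the threshold in all 4 settings without loess, with ratios of 0.99 to 1.33 and adjusted p of 0.227 to 0.632, and with the channels unpaired (0.87, adjusted p = 0.595). Over all 313 genes, 14 were called toward drone in the reported setting. That count was 2 to 6 in the 4 settings without loess, 8 with the channels unpaired, and 6 to 8 without array 1, 2 or 3. With the dyes that the protocol texts name, the ratio of AmCEst06 turned to -0.41 (limma, adjusted p = 0.851). Under those dyes array 1 correlated with arrays 2, 3 and 4 at r = -0.78, -0.76 and -0.42 over all genes. With the label-field dyes these values were 0.78, 0.76 and 0.42. The mean of -0.41 thus joined array 1 with arrays of the opposite sign.

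**Figure D2:**
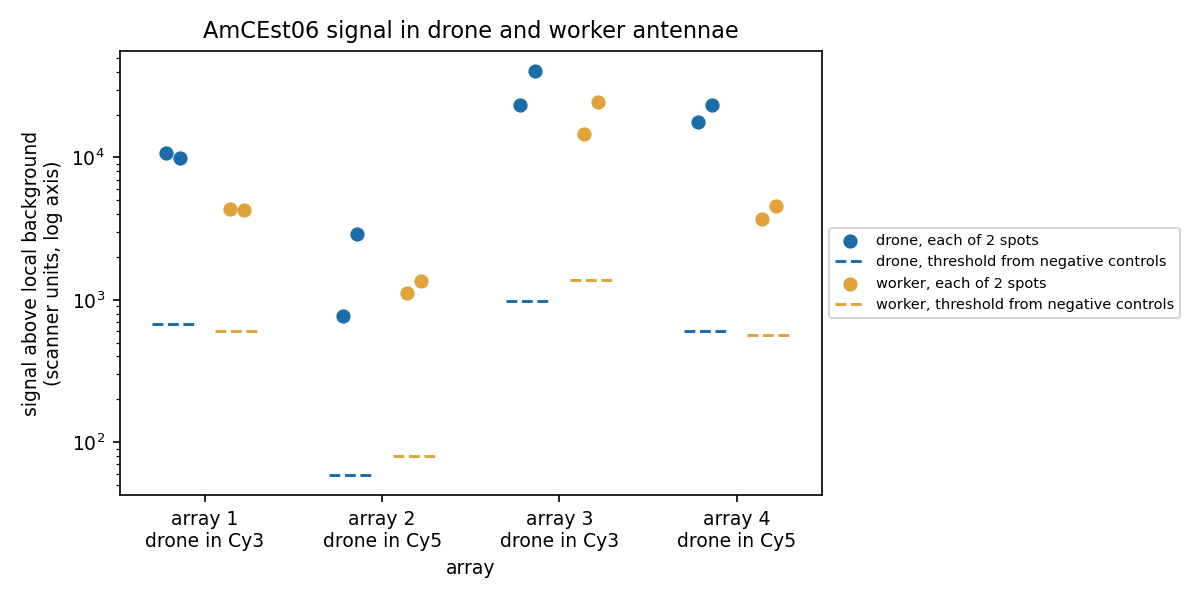
AmCEst06 signal above local background in scanner units on a log axis, for each of 2 spots in drone (blue) and worker (yellow) on the 4 arrays, with dashed lines at the negative-control thresholds. Every spot lies above its threshold, and each spot reads higher in drone than in worker except the first spot of array 2.

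The exception among the spots of AmCEst06 was on array 2. There the first spot read 776 units in drone against 1115 in worker, and the other spot 2914 in drone against 1353 in worker. The normalized log2 ratios of these spots were -0.20 and 1.20, while on the other arrays the 2 spots differed by less than 0.2. In the first spot the drone foreground had a median of 822 and a mean of 2213 over its pixels, so that reading depends on the summary chosen. With the first spots alone the log2 ratio of AmCEst06 was 0.70 (adjusted p = 0.182), with the other spots alone 1.05 (adjusted p = 0.00713), and with pixel means in place of medians 1.00 (adjusted p = 0.00861).

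AmCEst03 had a normalized ratio in favour of worker antennae on all 4 arrays, but was not called over all genes. Its signal was 899.5, 72.5, 1049.5 and 928 units in drone, against 984, 333.5, 1935.5 and 1156.5 in worker. The worker signal was thus the higher on each array before any normalization as well. The worker median over all genes was also the higher on arrays 2, 3 and 4, at 105.5, 611 and 643 against 42, 573.5 and 178 in drone. On array 1 the drone median was the higher, at 459.5 against 213.5. The log2 ratios of drone over worker were -0.55, -1.15, -0.42 and -0.33, with a mean of -0.61 ± 0.19 (standard error, n = 4) and a 95% interval of -1.08 to -0.14 (limma, adjusted p = 0.114). Array 2 held the largest difference, and the mean was -0.43 without it. Limited to the 105 genes above the negative controls, AmCEst03 passed as higher in worker (limma, adjusted p = 0.0369). The ratio was the same, and the standard error was 0.179 against 0.195.

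AmCEst05 had a ratio in favour of drone antennae on all 4 arrays and was not called either. Its normalized log2 ratios were 0.26, 0.27, 0.43 and 1.13, with a mean of 0.52 ± 0.20 (standard error, n = 4) and a 95% interval of 0.03 to 1.01 (limma, adjusted p = 0.194). The signal before normalization was 242, 47, 640.5 and 264 units in drone, against 47.5, 74.5, 429.5 and 441 in worker. Before normalization, drone was thus the higher on arrays 1 and 3, where it was in Cy3, and worker on arrays 2 and 4. All 8 values were below the control thresholds, and the mean ratio was 0.32 without array 4. Both AmCEst03 and AmCEst05 had intervals that leave out 0 for the single gene and failed the adjustment over 313 genes.

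After normalization, AmCEst02 had a positive log2 ratio on 3 of 4 arrays. Its signal was 713, 9.5, 2144.5 and 969 units in drone, against 288, 52, 2540.5 and 828 in worker. On array 3 the signal before normalization was higher in worker, and the ratio was positive only after loess. On array 2 both values were below the threshold, and this array alone gave a negative log2 ratio, -0.16, against 0.44, 0.24 and 0.40 on arrays 1, 3 and 4. The mean was 0.23 ± 0.17 (standard error, n = 4) with a 95% interval of -0.19 to 0.65 (limma, adjusted p = 0.536), so a 1.57-fold difference in favour of drone lies at the edge of what these arrays leave possible.

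**Figure D3:**
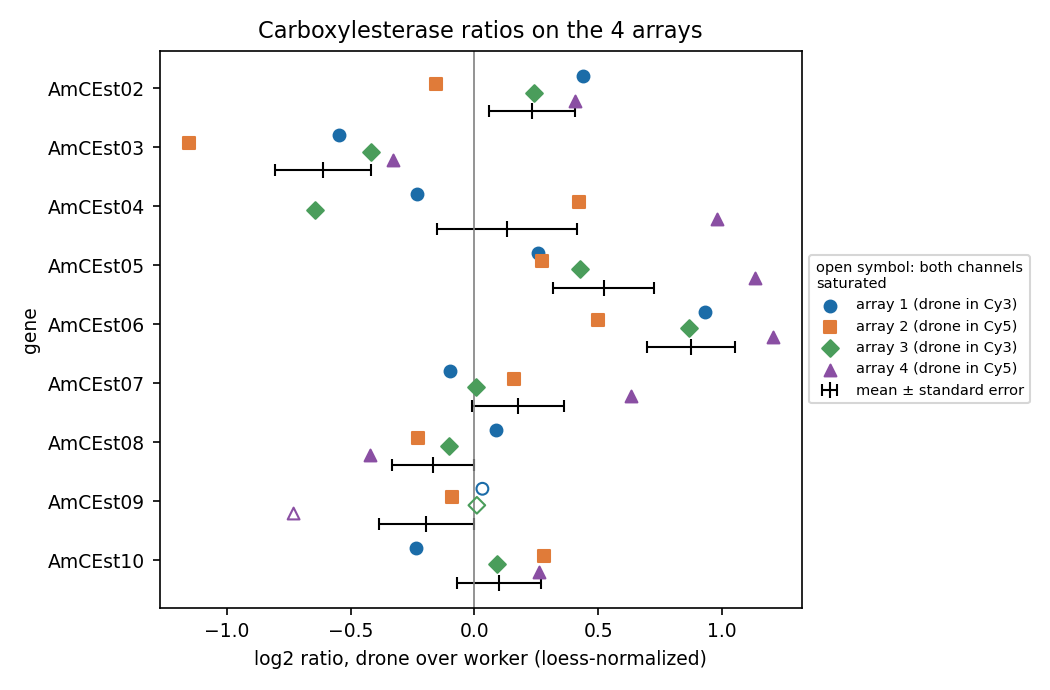
Normalized log2 ratio of drone over worker for the 9 carboxylesterases (rows), 1 symbol per array, with the mean and limma's standard error below each set as a bar. AmCEst05 and AmCEst06 lie right of 0 on all 4 arrays, AmCEst03 lies left of 0 on all 4, the other 6 genes have arrays on both sides, and the open symbols of AmCEst09 come from saturated spots.

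AmCEst09 is given apart because its spots were saturated. On arrays 1, 3 and 4 the median pixel of both spots stood at the top of the scanner's scale in both sexes, with 60% to 96% of pixels saturated in drone and 60% to 85% in worker. No ratio between the sexes was measured on these 3 arrays. The values left after loess there, 0.03, 0.01 and -0.73, come from the loess curve, since the log2 ratio before normalization was 0.00 on each of the 3. Array 2 had at most 2% saturated pixels, and there AmCEst09 averaged 32608.5 units in drone against 32505.5 in worker. The 2 spots had log2 ratios of 0.06 and -0.09 before normalization and -0.02 and -0.16 after it. With saturated spots left out AmCEst09 kept 1 array and had no test, and the fit on all arrays (-0.19 ± 0.19, adjusted p = 0.678) says nothing of the sexes. Its signal on array 2 was 556 times the control threshold in drone and 404 times in worker, so the signal was far above background in both.

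The 4 remaining genes were dim, and none was called. AmCEst07 had log2 ratios of -0.10, 0.16, 0.01 and 0.63 (mean 0.18 ± 0.18, adjusted p = 0.704), AmCEst08 of 0.09, -0.23, -0.10 and -0.42 (mean -0.17 ± 0.17, adjusted p = 0.683), and AmCEst10 of -0.24, 0.28, 0.09 and 0.26 (mean 0.10 ± 0.17, adjusted p = 0.825), all by limma with n = 4. Each of the 3 crossed 0 between arrays. Since they passed the control threshold on 0 arrays in drone, a lower bound on the fold was sought against the controls. It came to under 1 in each, so no fold is given. The 95% intervals of the log2 ratios were -0.27 to 0.62, -0.56 to 0.23 and -0.31 to 0.50.

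AmCEst04 stayed furthest from the threshold at its brightest. Its signal was 89.5, 26.5, 70 and 110.5 units in drone, against 28.5, 31.5, 131 and 266.5 in worker, at most 0.47 times the threshold. The image software did not find its spots in 3 of 8 readings, both on array 1 and 1 on array 3. The log2 ratios of AmCEst04 were -0.23 and -0.64 on arrays 1 and 3, with drone in Cy3, and 0.42 and 0.98 on arrays 2 and 4, with drone in Cy5. The sign thus followed the dye, and the mean of 0.13 ± 0.28 (limma, n = 4, adjusted p = 0.881) joins 2 opposite values. Of the other genes, AmCEst09 alone also had signs that split fully by dye, on mostly saturated spots. Of the 8 genes without AmCEst09, 4 had the higher mean ratio with drone in Cy5 and 4 with drone in Cy3, and array 4 held the highest ratio of 5 genes and the lowest of 1.

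Taken over the 9 genes, 1 was higher in drone and 0 were higher in worker antennae. Over all 313 genes, 4.47% were called toward drone and 7.35% toward worker, and a single call among 9 genes is no result about the class. By the unadjusted p, at the same threshold, 2 genes were higher in drone and 1 in worker, against 9.9% and 11.8% of all genes. The sign was the same on all 4 arrays toward drone in 2 genes and toward worker in 1, against 15% and 17.6% of all genes. The median log2 ratio of the 9 genes was 0.13, in a range of -0.61 to 0.87, beside a median of 0.01 over all genes. The median of the 9 genes turned to -0.21 with arrays centred on the housekeeping genes, beside -0.25 over all genes. It was -0.060 with no normalization (-0.10 over all genes), -0.032 with arrays centred on the non-receptor genes (-0.074) and -0.22 with the dyes of the protocol texts (-0.0066). Without AmCEst09, left out after seeing the data because of its saturation, the median of the 8 genes was 0.15, and it was -0.22, -0.064, -0.036 and -0.22 under these 4 settings in the order given.

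Other enzyme classes that act on odorants and foreign compounds were on the same array. Of 49 cytochrome P450s, oxidizing enzymes, 4 were called higher in drone antennae and 4 in worker antennae, and the median log2 ratio was 0.08. Of 7 glutathione S-transferases, which join glutathione to reactive compounds, 1 was called higher in each sex, with a median of 0.14. Over all 313 genes 4.47% were called toward drone and 7.35% toward worker, and counts this small are no result about either class. The median log2 ratio of both classes also moved with the setting. Under housekeeping centring these medians turned to -0.16 in the P450s and -0.055 in the transferases, so no lean of either class is read from them. With the dyes of the protocol texts they were -0.084 and -0.12, the P450 median was -0.0054 without normalization and -0.016 among genes above the controls, and the transferase median was -0.12 without array 3. The ratios of single genes ran from -4.45 to 1.55 in the P450s, against -0.61 to 0.87 in the 9 carboxylesterases. These ranges cover 49 and 9 genes, and the rule left out AmCEst01, at 4.775. They do not show that carboxylesterases differ less between the sexes.

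The carboxylesterase left out by the rule, AmCEst01, is set here against AmCEst06. The log2 ratio of AmCEst01 exceeded that of AmCEst06 by 4.10, 5.41, 2.39 and 3.71 on arrays 1 to 4, a mean of 3.90 ± 1.24 (SD, n = 4). The difference was positive on 4 of 4 arrays, and an exact permutation test that flips the signs of the 4 differences (two-sided) gave a p of 1 in 8, the smallest that 4 arrays allow. The test could thus not reach 0.05, and the pair was chosen with earlier results of these data known, so it decides nothing. On arrays 1, 3 and 4 the drone channel of AmCEst01 was saturated, so its ratio before normalization is a lower limit there. Loess also acts on these ratios, and the mean includes array 2. Neither the normalized differences nor their mean is therefore a strict limit. Array 2 alone compares unsaturated medians of both genes. Even there the first spot of AmCEst01 had 15% saturated pixels in drone, over the 10% at which a spot counted as saturated. The 2 spots of AmCEst06 on that array gave log2 ratios of -0.20 and 1.20. With saturated spots left out, 1 array remained, with a difference of 5.225 and no test.

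The pattern most like that of AmCEst06 was sought over the 4 arrays, by the root mean square difference in log2 ratio. It was lowest for AmCyp006AS04, a P450 of the CYP6 family, at 0.29. The log2 ratios of AmCyp006AS04 were 0.81, 0.66, 0.74 and 0.68. Next came AmCyp302A1 at 0.30, whose Drosophila counterpart takes part in the synthesis of the moulting hormone ecdysone, and the odorant receptor AmOr021 at 0.32. Their mean log2 ratios were 0.73 ± 0.15, 0.66 ± 0.15 and 0.64 ± 0.17 (limma, n = 4, adjusted p = 0.0254, 0.0359 and 0.0566). AmCyp302A1 was above the negative controls on 2 arrays in each sex. With 4 arrays and 312 genes to choose from, such likeness is a description only.

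**Figure D4:**
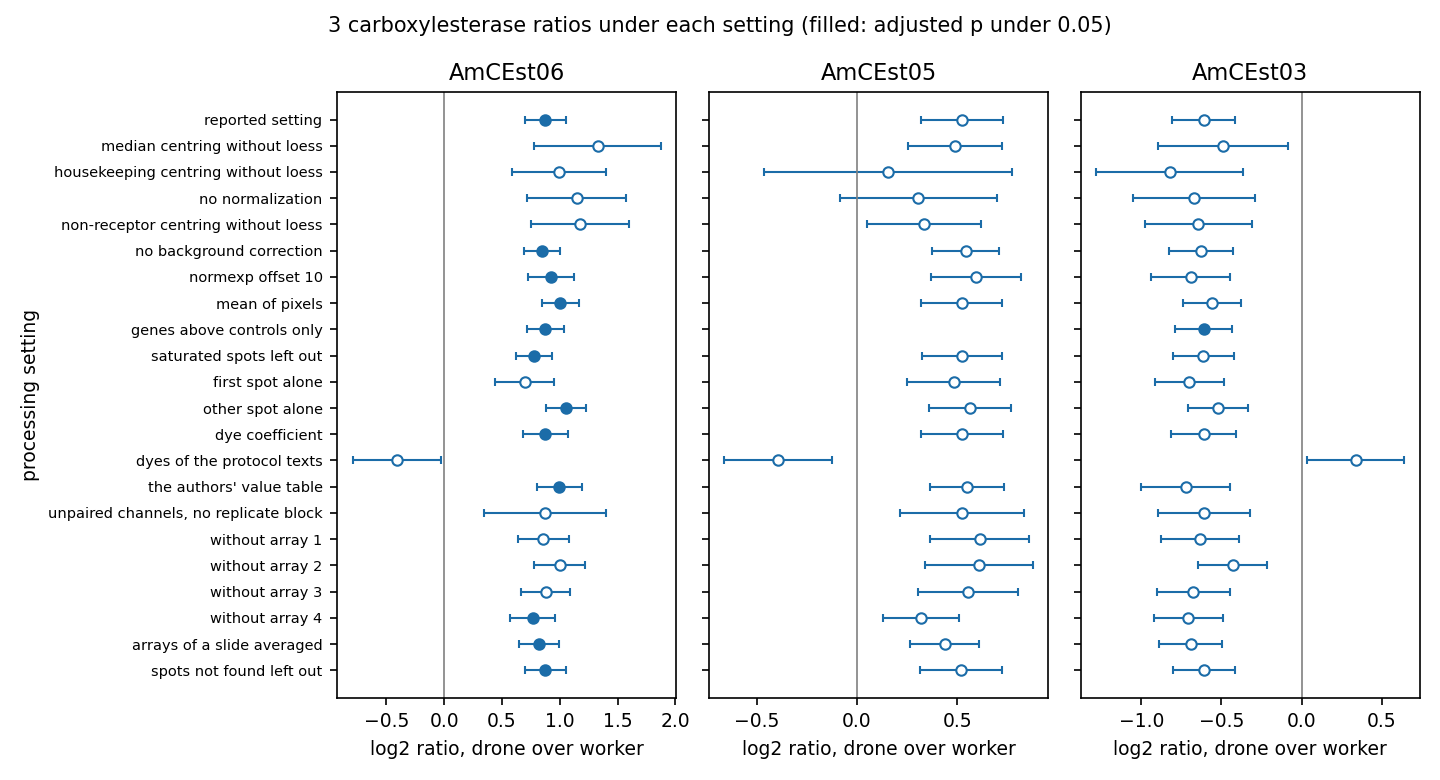
Log2 ratio of drone over worker with its standard error (bars) for AmCEst06, AmCEst05 and AmCEst03 under the reported setting and each alternative (rows), with filled points at an adjusted p under 0.05. AmCEst06 stays right of 0 in all settings except the dyes of the protocol texts, and AmCEst03 is filled only among genes above the controls.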

How the data were processed

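Per the labels, cDNA made from 20 µg of total RNA for every pool was labelled with Cy5 or Cy3. Per the file headers, the 4 scanner files list raw foreground and background intensities of each spot at 635 nm and 532 nm. The authors deposited with them a percent of saturated pixels and a quality score for each spot, -75 for absent and -50 for not found. Scanner and image software are not given in the sources used. A further table from the authors gives 1 deposited log2 ratio for each spot and array, its direction, centring and method unstated. Its columns ran as worker over drone (r = -0.98, -0.91, -0.94 and -0.98 with the drone over worker ratios), had medians of -0.09, -0.04, -0.05 and 0.06, and served only as an alternative.

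Foreground medians were corrected with normexp (offset 50) and loess in limma 3.58.1 under R 4.3.3. Control spots had weight 0, absent spots were left out, saturated spots were kept, and the 2 spots of each gene averaged. Ratios were fitted with lmFit and eBayes. The p-values were two-sided and adjusted by Benjamini and Hochberg's method over 313 genes, with a threshold of 0.05. The fit alone was run on simulated ratios with independent normal noise for each gene. The simulation held no loess, dye, slide or saturation effect, so it does not test those steps. Loess sets the centre of the ratios to 0 along the range of brightness, which hides any shift common to most genes. Negative controls were 8 oligonucleotides, of which the bright oligo 4 was left out of the reported threshold. Dyes were taken from the label fields, under which every pair of arrays correlated positively (r = 0.39 to 0.78). The protocol texts put drone in Cy5 on 1 array and give a lowest r between arrays of -0.775. Precision is limited by the 4 arrays. The named genes were all 9 members, AmCEst01, tissue markers and, for each called member, the 3 genes of nearest pattern. The members, lists and tests were chosen with earlier results of these data known. Names were looked up in RefSeq's gene table for Amel_HAv3.1.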

Additional observations from a re-analysis of the deposited data

Results flagged for a closer look

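AmCEst09 had a log2 ratio of -0.73 on array 4, far from its -0.09 to 0.03 on the other 3 arrays. The gap to the nearest array was 0.84 of the whole range, beyond Dixon's 95% critical value for 4 values. Of 10 sets of 4 array values examined, this was the only 1, and chance marks about 1 in 20. Both channels were saturated in both spots on array 4, and the log2 ratio before normalization was 0.00.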

How the results depend on the processing

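With the label-field dyes, AmCEst06 kept its direction in every alternative. Its adjusted p ran from 0.00532 to 0.851 over the 21 alternatives run. The drone count of 1 was 0 in each setting in which AmCEst06 missed the threshold. These were median centring (log2 1.33), housekeeping centring (0.99), no normalization (1.15) and non-receptor centring (1.17), all without loess, the first spots alone (0.70), and unpaired channels with no replicate block (0.87, 8 drone and 16 worker genes called in all). Leaving out 1 array gave AmCEst06 ratios of 0.76 to 1.00 and drone counts of 0 to 1. It also makes the dye swap uneven. The worker count of 0 was 1 among the 105 genes above the controls, and AmCEst03 was that gene. There fewer genes are tested, and the limma standard error of AmCEst03 was also smaller, at 0.179 against 0.195. At an unadjusted p under 0.05 there was 1 worker gene among the 9 with limma. No other of the 9 genes was called in any alternative.

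With the dyes of the protocol texts 0 genes of 313 were called, and signs turned for every member. The log2 ratios of AmCEst02 to AmCEst10 were then -0.013, 0.34, -0.25, -0.39, -0.41, -0.23, 0.21, 0.21 and -0.22, and AmCEst01 minus AmCEst06 was -1.85. Housekeeping centring moved the median of all genes to -0.25. Under it AmCEst04, AmCEst07 and AmCEst10 turned to -0.21, -0.25 and -0.22, under no normalization to -0.060, -0.10 and -0.068, and under non-receptor centring to -0.032, -0.069 and -0.040. AmCEst09, mostly saturated, turned to 0.18 under median and 0.024 under non-receptor centring. AmCEst04 turned to -0.060 with the other spots alone and ranged from -0.15 to 0.39 when 1 array was left out. AmCEst08 turned to 0.00068 without background correction and AmCEst10 to -0.026 with pixel means. The cause of these changes was not tested, and no gene that turned with the label-field dyes was called. AmCEst01 minus AmCEst06 ranged from 3.40 to 4.40 when 1 array was left out, and was 5.225 with saturated spots left out, on 1 array with no test.

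Genes detected in drone were 2 in place of 4 with oligo 4 in the threshold and with 3 SD. Those in worker were 1 in place of 3 with oligo 4. The slide as a random block could not be estimated from 4 arrays on 3 slides. Averaging the arrays of a slide, chosen after seeing the data, gave AmCEst06 0.82 (adjusted p = 0.0250), and leaving out spots not found, chosen likewise, gave it 0.87.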

Other observations

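The authors' deposited table leaves AmCEst04 blank in 3 of its 8 readings, and these are the 3 that carry the code for a spot that was not found. No spot of the other AmCEst genes is blank there or carries that code on any array. With the spots not found left out, AmCEst04 had a log2 ratio of 0.08 ± 0.43 on 3 arrays.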
